A study of Bos taurus with 30 samples.

Results

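The genes described here are 8 genes known from neutrophils, the phagocytes that circulate in blood and kill microbes with the contents of their granules: CXCR1, S100A12, MMP9, LTF, BPI, PGLYRP1 and the cathelicidins CATHL5 and CATHL6. They were measured in RNA of bovine lymphocytes (Bos taurus) on single-colour Agilent oligonucleotide arrays, with Cyanine 3 as the dye. The members were taken by name: every array feature whose platform annotation maps to one of the 8 genes, which gave 16 of 44407 features and 8 of the 3269 genes that could be named. All 8 passed the filter on dim genes, among 2402 genes tested.

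The study compared 8 animals given prednisolone, a synthetic glucocorticoid, at a daily dose of 30 mg per animal by mouth for 35 days, with 7 control animals. Each animal was sampled at 2 times, labelled T1 and T2, so that 30 arrays fell into 4 groups: control T1 (n = 7), prednisolone T1 (n = 8), control T2 (n = 7) and prednisolone T2 (n = 8). The labels call the cells lymphocytes collected at the slaughterhouse, and they give neither breed nor age, nor the place of T1 and T2 relative to the dosing, nor how the lymphocytes were separated from other blood cells. Each array held 1 animal, with no pooling, and the number of arrays limits the precision.

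CXCR1 is a receptor by which neutrophils sense chemokines such as CXCL8 and move to a site of infection. S100A12 is a calcium-binding protein of the cytosol that can be released and act on the receptor AGER. The other members are stored in granules: MMP9 is a gelatinase, LTF binds iron, BPI binds the lipopolysaccharide of Gram-negative bacteria, PGLYRP1 binds bacterial peptidoglycan, and the cathelicidins are precursors that are cut to antimicrobial peptides, of which cattle have a large family. Much of the granule protein RNA is made while neutrophils mature in bone marrow, and glucocorticoids are known to raise the number of neutrophils in the blood of cattle.

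On the first principal component of 2181 genes with a value on all arrays (21.9% of the variance), the prednisolone T2 arrays lay from 8.81 to 13.8 and the control arrays of both times from -5.33 to 3.97. The prednisolone T1 arrays lay from -22.2 to -3.30, and animals 32 and 28 stood apart there, at -22.2 and -21.9. Each array gave a value for 34506 to 38801 features. Lymphocyte markers were measured throughout, with CD3E of T cells between 12.46 and 14.96 and CD79A of B cells between 13.11 and 14.83 log2 units on all 30 arrays. The monocyte marker CD14 was measured on all 30 arrays as well (10.98 to 15.61), as was HBB, the beta chain of haemoglobin (15.004 to 18.45). The neutrophil genes CSF3R, CXCR2, S100A8, S100A9, MPO and ELANE are not analysed here. In these bulk samples more cells of a type and more RNA per cell cannot be told apart.

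Each member had 2 features, matched by accession. The platform lists CXCR1 under the name IL8RB and PGLYRP1 under PGLYRP, and the RefSeq entry of CXCR1 in the ARS-UCD2.0 assembly carries CXCR2, IL8RA and IL8RB among its synonyms, so this signal is uncertain between the closely related receptors CXCR1 and CXCR2. CXCR1 lies next to CXCR2 in that assembly, CATHL6 next to CATHL5, BPI next to its relative LBP, and S100A12 between S100A8 and S100A9. Signal shared between such related genes on the array was not tested. The 2 spots of a gene correlated over arrays at r = 0.99 for CXCR1, 0.97 for S100A12 and for MMP9, 0.96 for LTF, 0.93 for CATHL5 and 0.90 for PGLYRP1, and at 0.999 for BPI. The exception was CATHL6, whose spots correlated at r = 0.53 over the 19 arrays with both. Its spots lay up to 0.86 log2 units apart, those of LTF up to 0.94 and those of PGLYRP1 up to 1.06. The deposited table held no value at 14 of the 60 CATHL5 spots, 11 of the 60 CATHL6 spots, 5 of the 60 MMP9 spots and 3 of the 60 CXCR1 spots, and CATHL5 had no value at either spot on 3 arrays.

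One member passed the test in one of the comparisons. CATHL5 rose from T1 to T2 in the prednisolone animals by 0.74 on the log2 scale, a 1.67-fold rise, while the other 7 members passed the test in none of the comparisons. Differences are log2 intensities after scaling each array to its 75th percentile, the test is limma's with Benjamini-Hochberg adjustment over all 2402 genes, and a gene passed at an adjusted p under 0.05. In all comparisons of 2 groups, the values of every member overlapped between the groups. Among all genes tested the groups did not overlap for 0.291% at T1, 4.08% at T2, 0.25% between the times in controls and 9.49% between the times in prednisolone animals, so overlap was usual here. The order of the group means therefore carries little weight: neighbouring means of a member differed by less than the smaller of their SDs for all members but CXCR1.

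**Figure D1:**
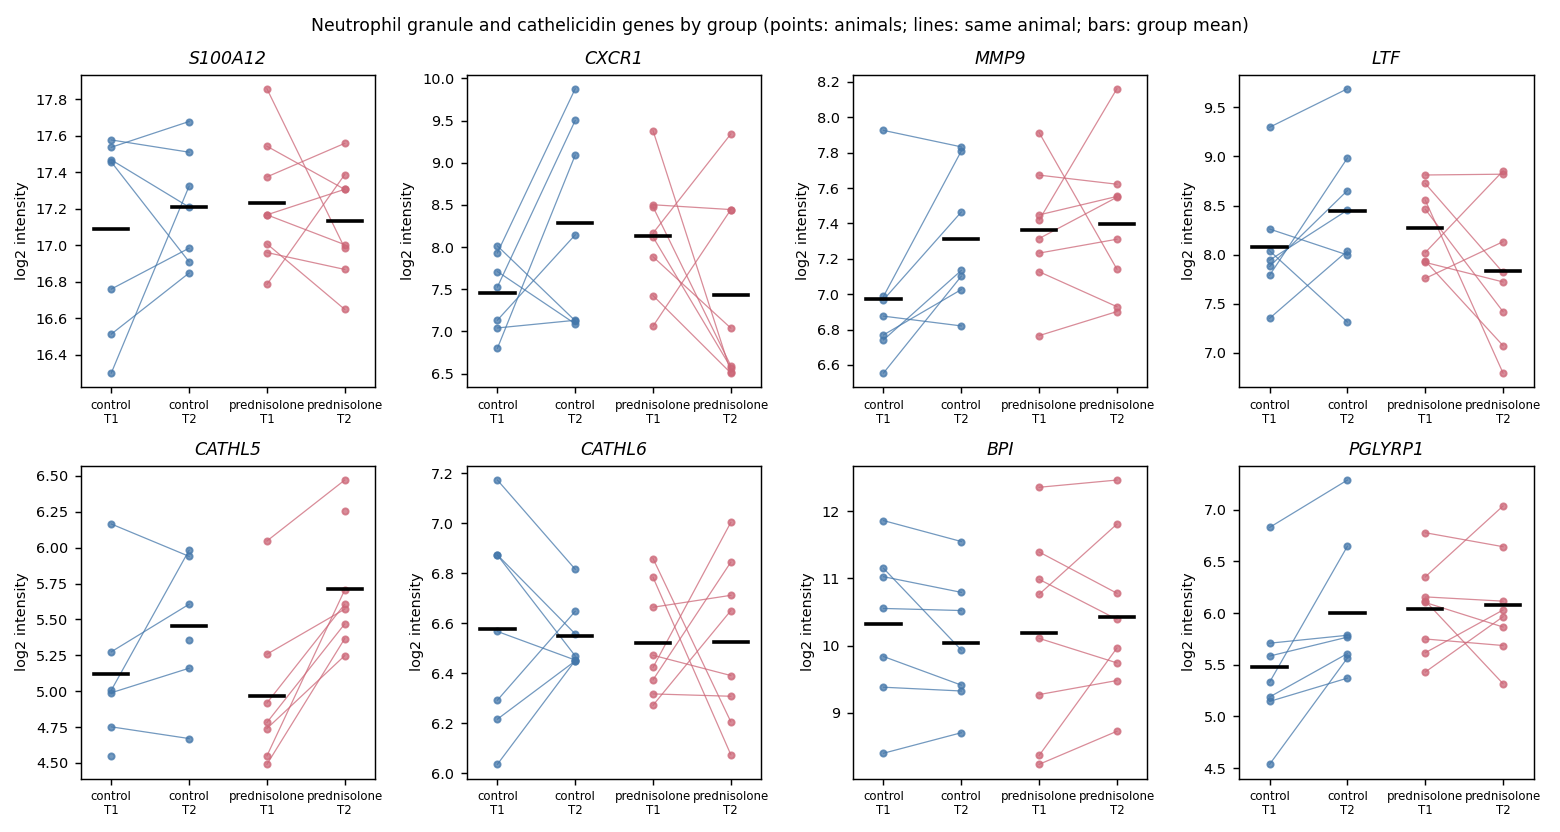
Level of each of the 8 genes (log2 intensity, a scale of its own per panel) in the 4 groups. Points are animals, lines join an animal's T1 and T2 arrays and bars are group means (7 control and 8 prednisolone animals, fewer for CATHL5 where the table held no value). The prednisolone lines of CATHL5 all slope upward, and no member separates the groups without overlap.

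CATHL5, a cathelicidin, was dim. In the control animals at T1 it ranged from 4.55 through a median of 5.00 to 6.17 log2 units (6 animals with a value), and at T2 from 4.67 through 5.48 to 5.98 (6 animals). In the prednisolone animals it ranged from 4.49 through 4.78 to 6.05 at T1 (7 animals) and from 5.25 through 5.59 to 6.47 at T2 (8 animals). At T2 every prednisolone animal lay above the prednisolone mean of T1, yet the ranges of both times overlapped. At T1 animals 29 (6.05) and 32 (5.26) lay above the lowest value of T2, 5.25 in animal 31. Taken animal by animal, the level went from 4.49 to 5.37 in animal 26, from 4.78 to 5.47 in animal 27, from 4.55 to 5.71 in animal 28, from 6.05 to 6.47 in animal 29, from 4.92 to 5.61 in animal 30, from 4.74 to 5.25 in animal 31 and from 5.26 to 5.57 in animal 32. All 7 prednisolone animals with both values were higher at T2, by 0.31 in animal 32 to 1.16 in animal 28, and animal 25, with 6.25 at T2, had no value at T1.

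The prednisolone group mean of CATHL5 was 4.97 ± 0.54 (SD, n = 7) at T1 and 5.71 ± 0.43 (SD, n = 8) at T2, a difference of 0.74 (SE 0.235, limma adjusted p = 0.0210, 95% interval 1.18 to 2.37-fold). Between these samples 38.1% of all genes tested passed in either direction and 21.9% passed upward and the 1 of 8 members called was no larger a share than that. In the fit blocked on animal the rise was 0.67 (SE 0.108, adjusted p = 0.0017). Without animal 28 it was 0.67 and no longer passed (adjusted p = 0.0652), and without animals 28 and 32 it was 0.74 (adjusted p = 0.0957), while the blocked fit without both gave 0.64 (adjusted p = 0.0040). In the control animals the same difference was 0.33 (SE 0.281, adjusted p = 0.736), with 3 of 5 animals higher at T2. The test of the difference between the treatments did not pass (interaction 0.41, SE 0.377, limma adjusted p = 0.487), so the rise is not shown to be particular to prednisolone. At T2 prednisolone animals stood 0.26 above controls (SE 0.232, adjusted p = 0.504), and at T1 0.15 below, with a difference of -0.15 (SE 0.283, adjusted p = 0.780).

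Missing values of CATHL5 were more common in controls than in prednisolone animals and nearly equal at both times in the latter. Its spots had no value in 5 of 14 cases in control T1, 6 of 14 in control T2, 2 of 16 in prednisolone T1 and 1 of 16 in prednisolone T2. The part of missing values in the differences between treatments was not tested. Where the 2 spots were taken apart, 1 had enough values to be tested, and it rose by 0.77 (adjusted p = 0.016 over all features).

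Some monocyte markers moved in the same comparison. Of the 12 listed, 4 were tested, none rose and 2 fell: CD14, the co-receptor for lipopolysaccharide, by 2.33 log2 units (SE 0.369, adjusted p = 0.000159) and the co-stimulatory CD86 by 1.46 (SE 0.218, adjusted p = 8.65e-05). The markers FCN1 (0.023, adjusted p = 0.938) and MSR1 (-0.31, adjusted p = 0.309) did not pass. The summed intensity of the 4 ranged from 89778 to 194044 in prednisolone T1 and from 65563 to 167172 in prednisolone T2. FCN1 was the brightest of the 4 and weighs most in this sum, with prednisolone means of 16.59 log2 units at T1 and 16.61 at T2. Of the 16 listed T cell markers, 9 were tested, 4 rose and 1 fell, with CD6 up by 0.81 (SE 0.176, adjusted p = 0.0019) and the homing receptor CCR7 down by 1.30 (SE 0.213, adjusted p = 0.000209). Of the other marker lists, 1 of 4 tested B cell genes rose, 2 of 2 tested eosinophil and mast cell genes fell (KIT fell by 1.71, SE 0.330, and HDC fell by 0.49, SE 0.119), and none of 7 natural killer, 4 erythroid and 3 platelet genes passed. Whether these shifts have a part in the CATHL5 result was not tested.

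CATHL6, the neighbour of CATHL5 in the genome and the other cathelicidin among the members, stayed nearly level. It ranged from 6.04 through 6.57 to 7.17 in control T1, from 6.27 through 6.45 to 6.86 in prednisolone T1, from 6.45 through 6.47 to 6.82 in control T2 and from 6.07 through 6.52 to 7.00 in prednisolone T2. The 4 group means spanned 0.055 log2 units, and the groups lay within each other's ranges. Prednisolone differed from control by -0.025 at T2 (SE 0.130, 95% interval -0.30 to 0.25, limma adjusted p = 0.928). Its T2 minus T1 differences were -0.027 in controls and 0.0030 in prednisolone animals, with 3 of 7 and 4 of 8 animals higher at T2. The spots of CATHL6 correlated less closely, at 0.53, than those of the other members.

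CXCR1, the chemokine receptor, passed in none of the comparisons. It ranged from 6.80 through 7.53 to 8.01 log2 units in control T1 and from 7.06 through 8.14 to 9.38 in prednisolone T1. At T2 it ranged from 7.09 through 8.15 to 9.88 in controls and from 6.51 through 6.82 to 9.34 in prednisolone animals. Both groups were wider at T2, where 3 controls lay above 9 and 5 prednisolone animals lay at 7.04 or lower, and the ranges overlapped at both times. Prednisolone animals stood 0.68 above controls at T1 (SE 0.294, limma adjusted p = 0.196) and differed from them by -0.85 at T2 (SE 0.558, adjusted p = 0.340).

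Within animals, CXCR1 was higher at T2 in 5 of 7 controls, with a mean difference of 0.83 (SE 0.446, adjusted p = 0.569), and lower at T2 in 6 of 8 prednisolone animals, with a mean difference of -0.69 (SE 0.441, adjusted p = 0.227). The extremes were control 17, at 2.29, and prednisolone animal 28, at -2.86. Prednisolone animals 25 and 26 went the other way from their group, with differences of 1.38 and 1.18, and control animals 20 and 23 with -0.89 and -0.62. For CXCR1 the treatment-by-time interaction was -1.52 (SE 0.654, 95% interval -2.86 to -0.19, unadjusted p = 0.0270 and adjusted p = 0.107 in limma over 2402 genes), and it did not pass in the blocked fit either (adjusted p = 0.0548). All 3 missing CXCR1 spots were in prednisolone T2. Where the 2 spots were taken apart, the interaction was -1.32 and -1.30 (limma over all features, unadjusted p = 0.0568 and 0.0598). Neither spot was thus under 0.05 unadjusted, unlike their average. At T2 the spots differed between prednisolone and control by -0.64 and -0.63. The part of the missing spots in the larger values of the average was not tested.

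S100A12 had almost the same level in every group. It ranged from 16.30 through 17.46 to 17.58 in control T1, from 16.78 through 17.17 to 17.86 in prednisolone T1, from 16.85 through 17.21 to 17.68 in control T2 and from 16.65 through 17.15 to 17.56 in prednisolone T2. The 4 group means spanned 0.15 log2 units and the groups overlapped nearly completely. The interval for prednisolone against control was -0.32 to 0.61 at T1 and -0.40 to 0.25 at T2, with limma adjusted p-values of 0.727 and 0.793. Within a group the highest animal exceeded the lowest by 1.78 to 2.42-fold.

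MMP9, the gelatinase, ranged from 6.55 through 6.88 to 7.93 in control T1 and from 6.77 through 7.37 to 7.91 in prednisolone T1. It ranged from 6.82 through 7.13 to 7.83 in control T2 and from 6.90 through 7.43 to 8.16 in prednisolone T2. Control animal 20 stood alone at T1, with 7.93 where the other 6 controls lay at 6.99 or lower and those of both groups overlapped. Prednisolone animals stood 0.39 above controls at T1 (SE 0.194, limma adjusted p = 0.254), with 7 of 8 above the control mean, and 0.083 above at T2 (SE 0.199, adjusted p = 0.828). Between the times MMP9 was higher at T2 in 5 of 7 controls (mean difference 0.34, SE 0.211, adjusted p = 0.618) and in 5 of 8 prednisolone animals (0.034, SE 0.183, adjusted p = 0.902).

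LTF, which encodes lactoferrin, ranged from 7.35 through 7.94 to 9.30 in control T1 and from 7.76 through 8.24 to 8.81 in prednisolone T1. At T2 it ranged from 7.31 through 8.45 to 9.69 in controls and from 6.80 through 7.77 to 8.85 in prednisolone animals. Control animal 20 was the highest of its group at both times, and 6 of 8 prednisolone animals lay below the control mean at T2. LTF differed by -0.62 between prednisolone and control at T2 (SE 0.363, limma adjusted p = 0.277) and by 0.19 at T1 (SE 0.246, adjusted p = 0.673). It was higher at T2 in 5 of 7 controls (mean difference 0.37, SE 0.337) and lower in 5 of 8 prednisolone animals (-0.44, SE 0.283). The interaction was -0.81 (SE 0.454, adjusted p = 0.222), and its adjusted p was 0.120 in the blocked fit.

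PGLYRP1, the peptidoglycan recognition protein of granules, ranged from 4.54 through 5.33 to 6.83 in control T1, from 5.43 through 6.11 to 6.78 in prednisolone T1, from 5.37 through 5.77 to 7.29 in control T2 and from 5.32 through 6.0 to 7.04 in prednisolone T2. The control T1 group sat lowest, and control animal 20 reached above all prednisolone animals at both times. Prednisolone animals stood 0.56 above controls at T1 (SE 0.277, limma adjusted p = 0.248) and 0.078 above at T2 (SE 0.296, adjusted p = 0.901). All 7 controls were higher at T2 than at T1, by 0.077 in animal 24 to 1.32 in animal 18, with a mean difference of 0.53 that did not pass (SE 0.343, adjusted p = 0.634; blocked on animal, SE 0.155 and adjusted p = 0.166). Among the prednisolone animals 3 of 8 were higher at T2, with a mean difference of 0.045 (SE 0.230, adjusted p = 0.898). The difference between the treatments in this change did not pass (interaction -0.49, SE 0.420, adjusted p = 0.458).

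BPI, which binds bacterial lipopolysaccharide, differed far more between animals than between groups. It ranged from 8.40 through 10.55 to 11.86 in control T1, from 8.23 through 10.44 to 12.36 in prednisolone T1, from 8.70 through 9.93 to 11.55 in control T2 and from 8.72 through 10.18 to 12.47 in prednisolone T2. Within a group the highest animal exceeded the lowest by 7.21 to 17.5-fold, and the 4 ranges lay nearly on top of each other. Prednisolone differed from control by -0.13 at T1 (SE 0.640, limma adjusted p = 0.924) and by 0.39 at T2 (SE 0.537, adjusted p = 0.686). Its SEs were the widest of the members in all comparisons but that at T2, where that of CXCR1 was wider, and its 95% interval at T2 ran from 0.592 to 2.88-fold. Between the times BPI was lower at T2 in 6 of 7 controls (mean difference -0.28, SE 0.528) and higher in 5 of 8 prednisolone animals (0.24, SE 0.632), and neither passed. These SEs and that of the interaction treat an animal's T1 and T2 arrays as independent. The animals' own BPI changes had SDs of 0.48 in controls and 0.79 in prednisolone animals.

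**Figure D2:**
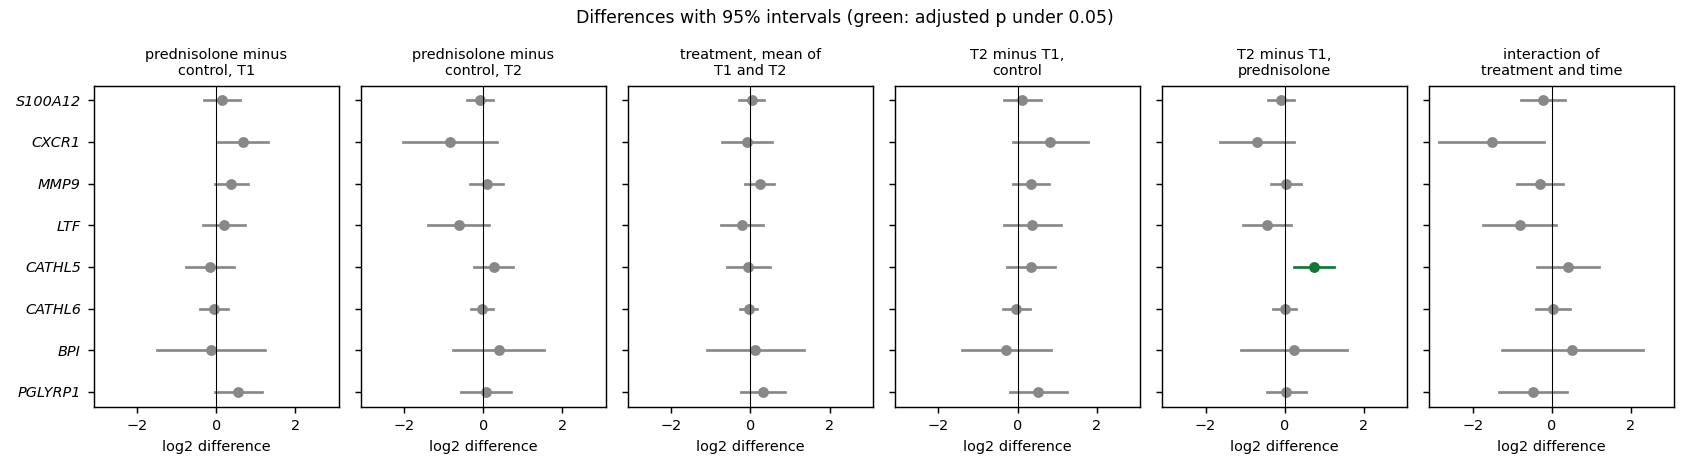
Difference of each of the 8 genes in the 6 comparisons (log2 scale, points with 95% intervals, filled green where the adjusted p was under 0.05). CATHL5 between T2 and T1 in the prednisolone animals is the only green point, at 0.74, and the intervals of BPI and CXCR1 are wide. Intervals between the times and of the interaction treat an animal's T1 and T2 arrays as independent.

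Counted over the members, none of 8 passed at T1, where 0.333% of all genes tested passed, and CXCR1 alone had an unadjusted limma p under 0.05 (0.0354), as had 21.7% of all genes. None of 8 passed at T2, where 18.6% of all genes did, and none was under 0.05 unadjusted, against 29.9% of all genes. None of 8 passed for treatment averaged over both times, where 2.66% of all genes did, and none was under 0.05 unadjusted, against 19.7%. None of 8 passed between T2 and T1 in controls, where 0.0% of genes passed, and none was among the 243 genes (10.1%) under 0.05 unadjusted. Between the times in prednisolone animals CATHL5 alone was under 0.05 unadjusted, against 46.9% of all genes. None of 8 passed for the interaction, where 18.2% of all genes did, and CXCR1 alone was under 0.05 unadjusted, against 32.2%. The median difference of the members was 0.17 at T1 against 0.032 for all genes tested, 0.026 at T2 against 0.039, 0.33 between the times in controls against 0.042, 0.019 between the times in prednisolone animals against 0.040, and -0.26 for the interaction against 0.0031. For treatment averaged over both times it was -0.0028 against 0.043.

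The animals' own levels were then set side by side across the 2 samplings, a comparison chosen after the values were seen. Each animal's deviation from its group mean at T1 was correlated with its deviation at T2, with permutation of animals within groups for 2361 genes with enough animals. BPI kept its order of animals: Pearson's r was 0.87 and Spearman's rho 0.85 over 15 animals (permutation p = 0.00012 and 0.00023, adjusted over all genes p = 0.0060 and 0.0129). Over all genes 6.69% passed this test, the median r was 0.27 with quartiles of 0.033 and 0.50, and BPI lay at percentile 98.2. The relation was as strong without the 2 animals farthest from the median at T1, 25 and 26 (r = 0.88), without animals 28 and 32 (r = 0.86), within controls (r = 0.92, n = 7) and within prednisolone animals (r = 0.84, n = 8).

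The same animals were the extremes of BPI at both times. Control animal 17 had 8.40 at T1 and 8.70 at T2, and prednisolone animal 25 had 8.23 and 8.72, the lowest of their groups. Control animal 20 had 11.86 and 11.55, and prednisolone animal 28 had 12.36 and 12.47, the highest. The SD of the animals' mean BPI levels, after group means were subtracted, was 1.20 log2 units, in place 19 from the highest among the genes compared.

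No other member passed this test. CATHL5 had r = 0.74 and rho = 0.64 over 12 animals (permutation, adjusted p = 0.0865 and 0.231), which fell to r = 0.39 without animals 23 and 29. PGLYRP1 had r = 0.68 and rho = 0.54 (permutation, adjusted p = 0.0976 and 0.232), and r = 0.44 without animals 20 and 21. MMP9 had r = 0.54 and rho = 0.70 (permutation, adjusted p = 0.196 and 0.0770), and r = 0.68 without animals 20 and 29. The r of S100A12 was 0.29 and that of LTF 0.32, and the latter turned to -0.31 without animals 20 and 32. CXCR1 had r = -0.15 and CATHL6 r = -0.068, with adjusted permutation p-values of 0.803 and 0.904.

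**Figure D3:**
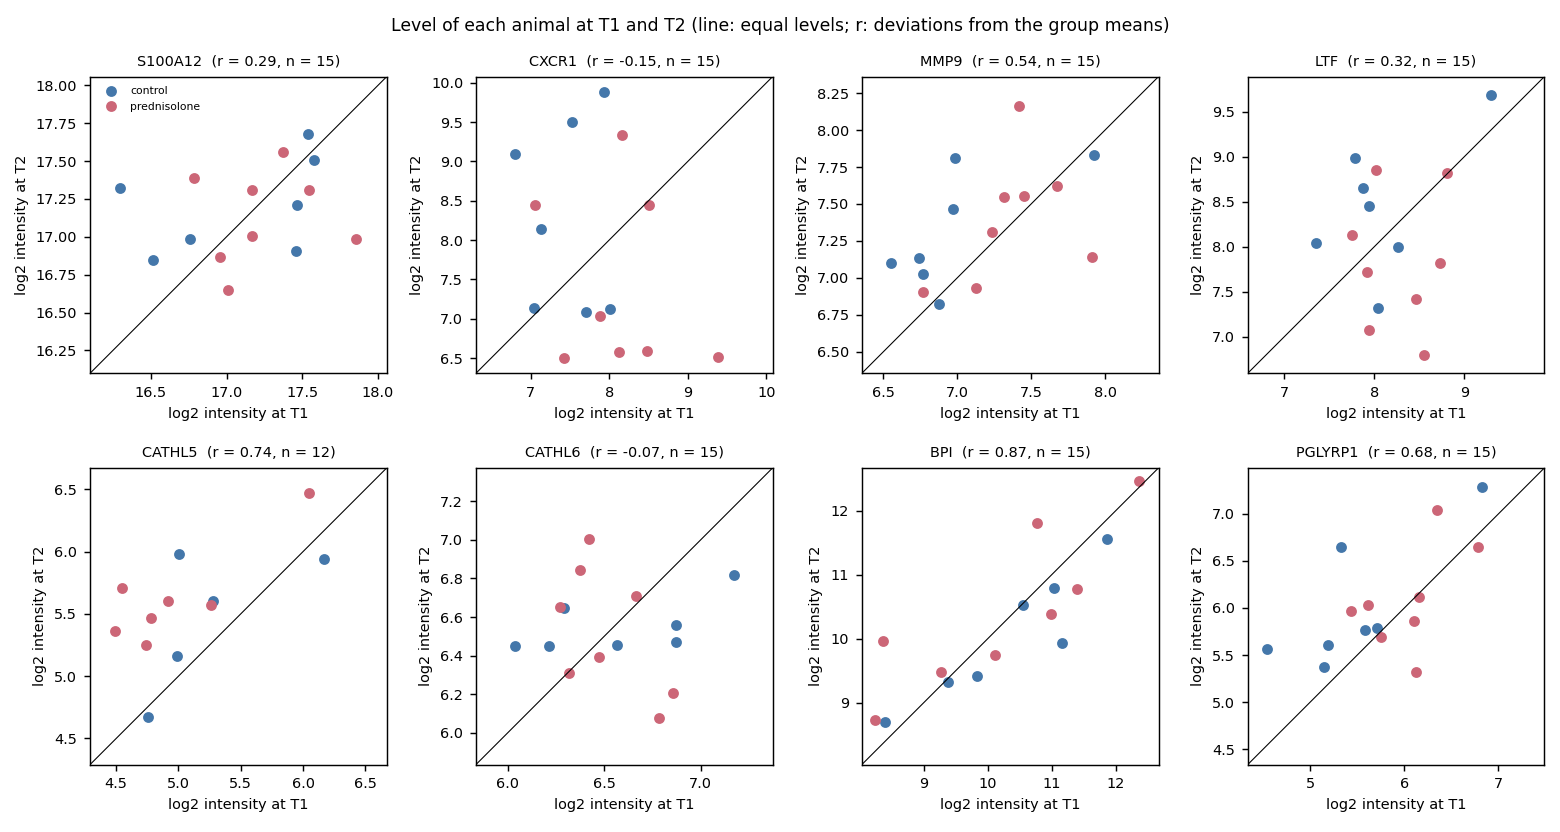
Level of each animal at T2 (vertical, log2 intensity) against T1 (horizontal, log2 intensity) for each gene, with controls in blue, prednisolone animals in red and the line of equal levels. The r in each title is over deviations from the group means: BPI animals lie along the line from 8.23 to 12.47 (r = 0.87), while CXCR1 animals scatter (r = -0.15).

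Some animals were extreme for several members. Control animal 20 was the highest control for 6 of 8 members at T1 (CXCR1, MMP9, LTF, CATHL6, BPI and PGLYRP1) and for 5 of 8 at T2 (MMP9, LTF, CATHL6, BPI and PGLYRP1), but the lowest for CATHL5 at T2. Control animal 17 was the lowest control for 4 of 8 at T1, and prednisolone animal 25 the lowest of its group for 5 of 8 at T1. At T2 prednisolone animal 26 was the highest of its group for 4 of 8 members (CXCR1, LTF, CATHL6 and PGLYRP1).

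The members' covariation over animals was tested for all 28 pairs at each time, on deviations from the group means. Of the 56 relations none passed at an adjusted permutation p under 0.05, and 7 at T1 and 4 at T2 were under 0.05 unadjusted. The r was above 0 in 20 of 28 pairs at each time, with a median of 0.28 at T1 and 0.18 at T2. The highest at T1 was that of CXCR1 with LTF, at r = 0.68 and rho = 0.77 (permutation p = 0.0015 for both, adjusted p = 0.0675 and 0.0862), which was 0.69 without the 2 animals farthest from the median. The highest at T2 was that of LTF with PGLYRP1, at r = 0.71 and rho = 0.65 (permutation p = 0.0048 and 0.0123, adjusted p = 0.0675 and 0.159), which was 0.56 without 2 animals. The same CXCR1 and LTF pair had r = 0.41 at T2, and LTF and PGLYRP1 had 0.24 at T1. For CATHL5 at T2 r was -0.49 with LTF, -0.47 with CATHL6 and -0.53 with PGLYRP1, and 0.096 with MMP9. None of these passed, and the first 3 were -0.37, -0.090 and -0.023 without 2 animals.

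**Figure D4:**
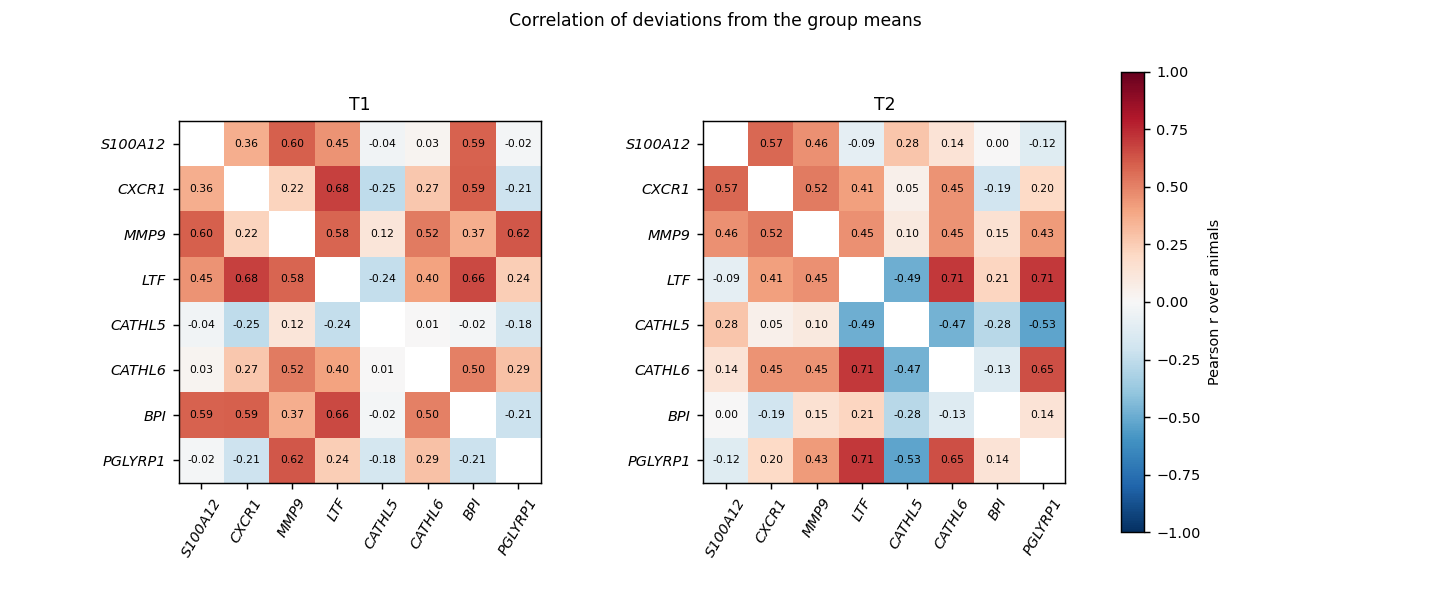
Pearson's r between the 8 genes over animals at T1 (left) and at T2 (right), after the group means were subtracted (up to 15 animals, colour from -1 to 1). Values run from -0.25 to 0.68 at T1 and from -0.53 to 0.71 at T2, with the lowest values in the CATHL5 row at T2, and none of the 56 passed the adjusted test.

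The genes most like each member were taken as the 3 highest by Pearson's r over the arrays after the group means were subtracted, among 2361 genes. The arrays hold 2 samplings of each animal and share each array's quality, so these values are a description. BPI was most like ANXA1, which encodes annexin A1 (r = 0.79, 30 arrays), ALDH1A1 (0.75, 29 arrays) and HYAL1 (0.73). S100A12 was most like SULT1A1 (0.86), DPYD (0.85) and IDH1 (0.83), which encode enzymes of sulfation, pyrimidine breakdown and isocitrate oxidation. CXCR1 was most like DGAT2, an enzyme of triglyceride synthesis (0.88), and 2 loci listed without a gene name (0.79 and 0.76). LTF was most like the chemokine CCL8 (0.75), complement component C2 (0.74) and CLEC6A, a C-type lectin (0.70).

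The remaining members had weaker partners. MMP9 was most like BOLA-DQA1, an MHC class II chain (0.68), ATP6V0B (0.66) and IGF1R (0.66). CATHL5 was most like MVK (0.71, 27 arrays), LASP1 (0.68) and CA2 (0.68). CATHL6 was most like COX7A1 (0.73), GDF7 (0.71, 29 arrays) and TMEM35A (0.68), and PGLYRP1 like AMD1 (0.77), TBCD (0.75) and AHR (0.68). No member was among the 3 genes most like another.

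Other genes known from neutrophils were set beside the members. Their counts stand against 18.6% of all genes that passed at T2 and, between the times in prednisolone animals, 38.1% that passed and 21.9% that rose. Over all lists, markers of other cell types included, 81 genes that are no members were tested, of which 13 passed at T2 and 29 (35.8%) between the times in prednisolone animals, the latter share near that of all genes. Of 20 other granule proteins listed, 6 were tested (CD63, CHI3L1, CTSC, HP, ORM1 and RETN), and none rose or fell in any of the 6 comparisons. Their median difference between T2 and T1 was 0.20 in controls and 0.21 in prednisolone animals. Of 15 other cathelicidins and beta-defensins, 5 were tested and 1 changed. This was LAP, the lingual antimicrobial peptide, a beta-defensin of epithelia, which fell from 7.06 ± 1.74 (SD, n = 5) to 4.91 ± 1.01 (SD, n = 6) between T1 and T2 in the prednisolone animals, by 2.14 (SE 0.754, limma adjusted p = 0.0430). Its other prednisolone arrays held no value. CATHL4, a further cathelicidin, did not pass in that comparison (0.34, adjusted p = 0.505), and CATHL1, CATHL2, CATHL3 and CAMP were below the filter.

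The receptors had calls in both directions. Of 24 other neutrophil receptors and surface proteins listed, 11 were tested. At T2, 3 were higher in prednisolone animals than in controls and none lower: FCGR2B, an inhibitory Fc receptor, by 0.83 (SE 0.167, limma adjusted p = 0.0031), the adhesion molecule CEACAM1 by 0.56 (SE 0.117, adjusted p = 0.0041) and TREM1, an activating receptor of myeloid cells, by 0.34 (SE 0.0998, adjusted p = 0.0287). Between T1 and T2 in the prednisolone animals 4 rose and 3 fell, of which the 4 with the smallest p were CXCR4, LTB4R, ITGB2 and FCGR2B. The chemokine receptor CXCR4 fell by 1.44 (SE 0.145), the leukotriene receptor LTB4R fell by 1.25 (SE 0.304), and the integrin chain ITGB2 rose by 0.30 (SE 0.078). CXCR1 itself passed in none of these comparisons.

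Genes that act with single members were tested too. Of 9 chemokines listed as ligands of CXCR1 or the related CXCR2, 4 were tested. The chemokine GRO1 was higher at T2 in prednisolone animals than in controls by 1.32 (SE 0.386, limma adjusted p = 0.0274). CXCL5 fell by 3.62 between the times in prednisolone animals (SE 0.730, adjusted p = 0.0011), while CXCL8 did not pass there (-0.32, adjusted p = 0.609). Of 13 inhibitors of MMP9 and related proteases, 5 were tested. The inhibitor TIMP1 was lower at T2 in prednisolone animals than in controls, with a difference of -0.60 (SE 0.131, adjusted p = 0.0052), and fell by 1.503 between the times in the prednisolone animals (SE 0.346, adjusted p = 0.0029). TIMP2 fell by 0.77 in the latter comparison (SE 0.208, adjusted p = 0.0079).

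Of 11 listed genes of the S100 family and its receptor, 5 were tested: AGER was higher at T2 in prednisolone animals by 0.51 (SE 0.152, limma adjusted p = 0.0298) and rose between the times by 0.59 (SE 0.158, adjusted p = 0.0079), and S100A10 rose by 0.56 (SE 0.137, adjusted p = 0.0043). Of 12 relatives and partners of BPI, PGLYRP1 and LTF, 4 were tested and 1 changed, CD14, which was lower at T2 in prednisolone animals with a difference of -1.11 (SE 0.338, adjusted p = 0.0328). LBP, the neighbour and relative of BPI, had a difference of 0.0036 between the times in prednisolone animals (adjusted p = 0.994). Of 8 NADPH oxidase genes, 5 were tested and 3 rose between the times in prednisolone animals, where 21.9% of all genes rose. They were RAP1A at 0.61 (SE 0.072, limma adjusted p = 1.2e-05), RAC2 at 0.30 (adjusted p = 0.0318) and RAC1 at 0.20 (adjusted p = 0.0468). The oxidase genes CYBA (0.23, adjusted p = 0.0995) and NCF1 (-0.33, adjusted p = 0.204) did not pass there. Of 9 granulocyte transcription factors, 4 were tested. CEBPD was higher at T2 in prednisolone animals by 0.78 (SE 0.244, adjusted p = 0.0359), and CEBPA, CEBPB and ID2 fell between the times in them by 0.46, 0.56 and 0.35 (adjusted p = 0.0152, 0.0276 and 0.0405).

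**Figure D5:**
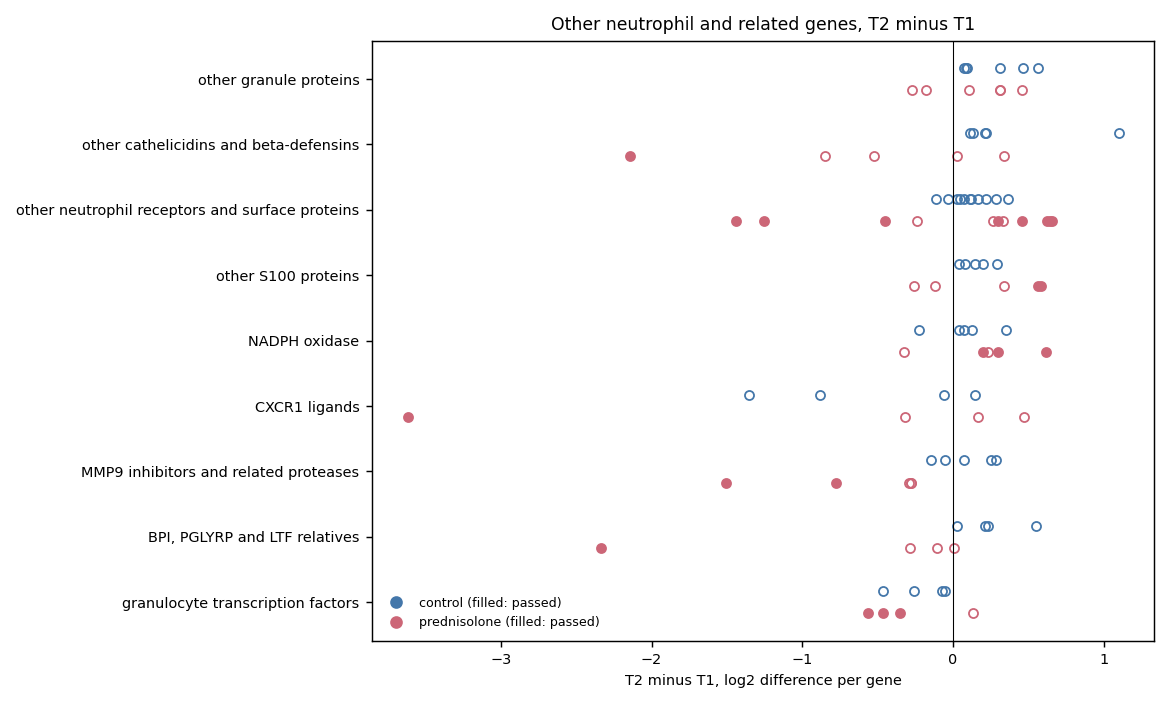
Difference between T2 and T1 (log2 scale) of each tested gene of 9 lists around the members, in controls (blue) and prednisolone animals (red), filled where the adjusted p was under 0.05. No control point is filled; the prednisolone points spread from -3.62 (CXCL5) to 0.66 (FCGR2B), and none of the other granule proteins is filled.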

How the data were processed

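Intensities were deposited by the authors on a linear scale, 1.62 to 1067622. Per the series text, scans at 2 sensitivities were joined, detrended and background-subtracted in Feature Extraction 9.5. R 2.11.1 is listed in the submitters' processing notes. How arrays were normalized to each other, and why 17.2% of cells are null, is not stated in the labels or the file header. Each array was scaled to its 75th percentile over 23055 complete features (largest shift 0.044 log2 units), raised to percentile 1 (2.51) and logged. Features were named through accessions and symbols in RefSeq tables, and those of a gene within 0.25 log2 units of the brightest were averaged. Genes in the lowest 25%, or with fewer than 4 values in a group, were left out. Differences were fitted with limma 3.58.1 in R 4.3.3 (two-sided, each fit on the arrays with a value), after the fit was tested on simulated data. Main fits between the times and of the interaction did not pair an animal's T1 and T2 arrays. For treatment averaged over both times, only animals with a value at T1 and at T2 counted. Correlations used 100000 permutations within groups.

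All 8 members were named. The other genes named were the 3 most like each member, up to 4 genes per list and comparison that passed (smallest p first), and markers. Uncalled genes given for contrast were chosen after their values were seen. The members and lists were chosen with earlier results of these data known. Alternatives were the animal as a block, other scalings, floors and filters, the brightest feature, array weights, and animals 28 and 32 or each prednisolone animal left out. The animal numbers pair the arrays: T1 and T2 deviations of an animal correlated at 0.105 to 0.613 (median 0.381), and 13 of 15 animals correlated best with themselves. No label names a slide or batch, so none was modelled.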

Additional observations from a re-analysis of the deposited data

Results flagged for a closer look

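MMP9 of control animal 20 at T1, at 7.93 log2 units, was flagged by Dixon's outlier test against the other 6 controls. It was the only such case among 32 groups of member values examined. By chance about 1 group in 20 is flagged, so 1 flag among 32 is not unusual.

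By the limma interaction, the change between the times differed between treatments for none of the 8 members and for 10 of 81 other listed genes tested (12.3%), against 18.2% of all genes. The change in prednisolone animals minus that in controls was -3.76 for CXCL5, -3.24 for LAP, -2.55 for CD14, -1.76 for KIT, -1.62 for LTB4R, -1.58 for TIMP1, -1.47 for CXCR4, -1.43 for CD86, -1.13 for CCR7 and 0.49 for RAP1A. The LAP value rests on fewer arrays: 5 control and 5 prednisolone animals had a value at T1, and 4 and 6 at T2. In controls LAP differed by 1.10 between the times, which did not pass (SE 0.478, limma adjusted p = 0.491). CD14 went from 14.06 ± 0.78 to 11.73 ± 0.80 log2 units (SD, n = 8) in prednisolone animals and from 12.62 ± 0.50 to 12.84 ± 0.57 (SD, n = 7) in controls.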

How the results depend on the processing

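The count of members that passed kept its value in every comparison under every alternative run, except that the CATHL5 rise between T1 and T2 in prednisolone animals was lost without animals 28 and 32 (0 members) and without animal 28 (0 to 1 members when each treated animal was left out). Its size ranged from 0.64 to 0.83 over all alternatives, and its adjusted p from 0.0017 to 0.0957. CXCR1's interaction passed in none, with the replicate block included. Covariation counts stayed at 0. The animal block changed no member's call.

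Counts over all genes moved more. At T1 (8 genes) they were 232 with the replicate block, 246 in 1 fit of all 30 arrays, 69 with array weights, 5 with the brightest feature, 2 with no filter on dim genes and 0 without animals 28 and 32. Averaged over both times (64 genes) they were 39 with the brightest feature, 36 with no filter and 20 without those animals. Between the times in controls (0 genes) they were 3 with the block, 6 in 1 fit and 2 with weights, and for the interaction (436 genes) 224 without animals 28 and 32. The causes were not tested.

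Differences that turned sign were uncalled in each case. With the brightest feature CATHL6 was 0.064 at T1, 0.11 at T2 and 0.056 between the times in controls, and PGLYRP1 -0.039 in prednisolone animals. Without animals 28 and 32 BPI was -0.19 at T2 and -0.39 averaged, and S100A12 -0.053 averaged. CATHL5 averaged was 0.077 with the block, which also uses animals that lack a value at T1 or T2. With array weights the averages were -0.051 for S100A12 and -0.00013 for BPI, and CATHL6 in controls was 0.0073. Under quantile normalization S100A12 averaged was -0.023. Between the times in prednisolone animals MMP9 was -0.0098 as deposited and -0.014 with quantiles, and CATHL6 -0.041 and -0.038, and the interaction for CATHL6 was -0.0015 and -0.00079. Leaving out 1 prednisolone animal gave -0.20 to 0.011 for S100A12, -0.067 to 0.15 for MMP9, -0.079 to 0.10 for CATHL6 and -0.047 to 0.17 for PGLYRP1, settings chosen after the values were seen, as was the blocked fit without animals 28 and 32.

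CATHL5 and CATHL6 lacked a spot on 11 arrays each, and the spots of PGLYRP1 lay up to 1.06 log2 units apart.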
